A study of Mus musculus with 134 samples.

Results

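Acta2, Myh11, Cnn1, Oxtr, Trp63, Tagln, Mylk, Actg2 and Lmod1 were followed as genes known from the myoepithelial cells of the mammary gland. Each gene was taken from the probe sets of the array that carry 1 gene symbol, and all 9 genes were measured by exactly 1 probe set, so 9 of the 19938 genes of the data set were members. Expression was measured in 134 mammary tumors of as many animals, PyMT-positive females of the N2 generation, each tumor on its own Mouse Gene 1.0 ST array. Their PyMT-positive fathers were F1 offspring of MOLF/EiJ females and MMTV-PyMT males, and their mothers were FVB/NJ, so that every tumor carried the same transgene while MOLF/Ei alleles segregated. No treatment was given, no normal gland or control group was analysed here, and the tumors therefore form 1 group across which levels were correlated. The MMTV promoter drives the PyMT oncogene in mammary epithelium, and ages were not used here. Whole tumor tissue was arrayed, so fewer cells of a type and less RNA per cell cannot be told apart. The question was how these genes vary between tumors, and whether they follow basal keratins or the genes of vessels and stroma.

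Myoepithelial cells form the basal layer of mammary ducts and alveoli. They hold the basal keratins and the transcription factor p63 like other basal epithelia, and a contractile apparatus like that of smooth muscle, which squeezes milk from the alveoli when oxytocin reaches its receptor. The same contractile genes are used by the smooth muscle of vessel walls, by pericytes and by activated fibroblasts, whereas keratins and p63 are not. Acta2 and Actg2 encode smooth muscle actins, Myh11 the smooth muscle myosin heavy chain, Mylk the kinase that switches this myosin on, Cnn1 (calponin) and Tagln (transgelin) proteins that bind actin filaments, and Lmod1 (leiomodin) a nucleator of actin filaments in smooth muscle. Oxtr encodes the oxytocin receptor, and Trp63 the mouse p63.

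Values are log2 signals made with RMA, in which 1 unit is a doubling of signal. Genes of olfactory and vomeronasal receptors, which a mammary tumor is not known to use, gave a detection floor of 5.71: the means of 95% of 1192 such genes lay below it. Signals of different probe sets are not comparable as amounts, so each gene was compared only with itself across tumors.

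Acta2, on chromosome 19 (34240336 to 34255585, build GRCm38.p6), ranged from 8.64 in tumor 126 over a median of 9.90 to 12.26 in tumor 100, with a mean of 9.93 ± 0.69 (SD, n = 134). Its SD was larger than that of 98.6% of all genes, whose median SD was 0.19. Cnn1 (chromosome 9, 22099221 to 22109221) ranged from 5.81 over 6.59 to 9.87, with a mean of 6.79 ± 0.74 (SD, n = 134). Tumors 126 and 100 again held its lowest and highest value, and the highest lay 9.71-fold above the median. A few tumors thus stood far above the rest: 15 tumors were more than 2-fold above the median of Cnn1 and 0 were more than 2-fold below it. Myh11 (chromosome 16, 14194527 to 14292188) ranged from 6.26 over 6.87 to 9.51, with a mean of 7.06 ± 0.56 (SD, n = 134), and tumors 61 and 73 were its highest at 9.51 and 9.48. Tagln (chromosome 9, 45929628 to 45936058) ranged from 6.65 over 7.36 to 9.30, with a mean of 7.44 ± 0.46 (SD, n = 134). Its highest value, like those of Acta2 and Cnn1, belonged to tumor 100.

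The other contractile genes varied less. Actg2 (chromosome 6, 83512909 to 83536251) ranged from 5.12 over 5.64 to 7.20, with a mean of 5.73 ± 0.34 (SD, n = 134), and exceeded the floor in 48 of the 134 tumors, while each other member exceeded it in all 134. Actins are near-identical proteins, so signal from Acta2 transcripts on the Actg2 probe set was not separable here. Mylk (chromosome 16, 34745199 to 35002436) ranged from 6.56 over 7.10 to 8.49, with a mean of 7.16 ± 0.29 (SD, n = 134), and its highest value lay in tumor 103, in which Acta2 (9.12) was below its median. Lmod1 (chromosome 1, 135324813 to 135368065) ranged from 5.98 over 6.35 to 7.41, with a mean of 6.37 ± 0.19 (SD, n = 134), a spread close to that of the median gene. Tumor 73 was the highest.

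The receptor gene Oxtr (chromosome 6, 112473683 to 112491035) ranged from 6.15 over 7.32 to 9.06, with a mean of 7.38 ± 0.56 (SD, n = 134). Trp63 (chromosome 16, 25683763 to 25892088) ranged from 6.81 over 7.84 to 8.94, with a mean of 7.84 ± 0.37 (SD, n = 134). Its distribution was nearly symmetric, with a skewness of 0.13 against values of 0.69 to 2.10 for the other 8 genes, and tumors 100 and 112, highest in Acta2, lay close to its median (7.96 and 7.98).

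**Figure D1:**
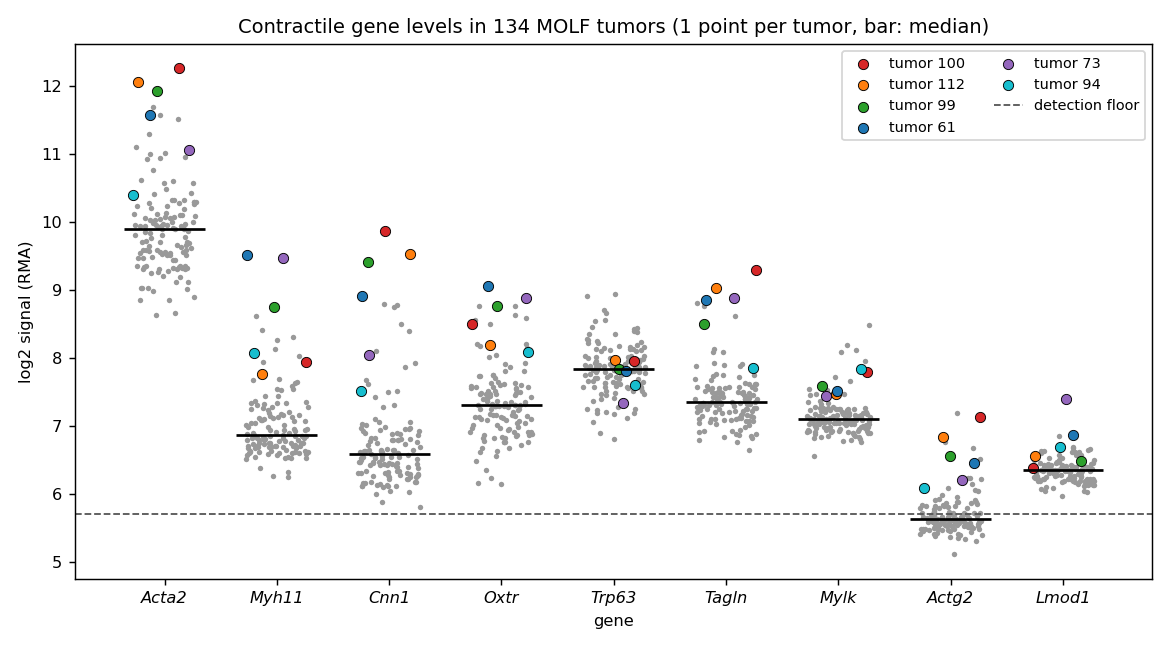
Log2 signal of each of the 9 genes (x axis) in 134 tumors (y axis), 1 point per tumor and a bar at the median. Colored points mark 6 tumors named in the text. Tumors 100, 112 and 99 sit at the top of Acta2 (12.26, 12.06 and 11.92) and near the median of Trp63, and most Actg2 points lie below the dashed floor at 5.71.

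Sequence upstream of the start of Acta2 is shown as that of 1 of the genes in the shared variation described next. It is given together with that upstream of Myl9, the regulatory light chain of smooth muscle myosin. Myl9 was the gene outside the 9 whose level was most like that of Acta2. Of the 5 members with a listed promoter, only Acta2 held the site marked here, so it does not stand for the others. Capitals mark the CArG box, the site bound by serum response factor, with at most 1 of its 6 inner bases departing from A or T. The box reads the same on both strands, and the marked boxes do not overlap. The sequences are from RefSeq (GRCm38.p6), 5′ to 3′ on the gene's strand. Acta2 is shown from -109 to -10 relative to its listed start (chr19:34255383-34255482, minus strand), and Myl9 from -186 to -87 (chr2:156775278-156775377, plus strand).
Acta2: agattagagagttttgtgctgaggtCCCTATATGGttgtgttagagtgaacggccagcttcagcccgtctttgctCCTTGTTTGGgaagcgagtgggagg
Myl9: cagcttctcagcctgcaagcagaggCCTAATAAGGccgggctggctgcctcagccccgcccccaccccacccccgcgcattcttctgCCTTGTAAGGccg

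Within the 250 bases before the listed start, Acta2 held 2 such boxes, beginning at -84 and -34, each with 1 departing base. Myl9 held 2 as well, at -161 with all inner bases A or T and at -99 with 1 departing base. At least 1 such box was present in 8.59% and at least 2 in 0.67% of the 32851 promoters listed, and a box without a departing base in 1.47%. Of the 9 members, 5 had a listed promoter, and the windows of Cnn1, Oxtr, Mylk and Lmod1 held no such match. Myh11, Trp63, Tagln and Actg2 were not searched. A match is a description of these letters only.

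Acta2, Cnn1, Tagln, Myh11 and Actg2 rose and fell together across tumors. Acta2 and Cnn1 had the highest correlation of all 36 pairs of members (Pearson's r = 0.91, Spearman's rho = 0.84, permutation p = 1e-05 for each, the smallest that 100000 permutations can give), and leaving out the 2 tumors most distant from the Acta2 median gave r = 0.89. Acta2 followed Tagln with r = 0.85 (rho = 0.74), Myh11 with r = 0.81 (rho = 0.75) and Actg2 with r = 0.75 (rho = 0.61), each with a permutation p of 1e-05. Among these 5 genes the 10 values of r lay between 0.63 and 0.91. By runs of label numbers, Acta2 and Cnn1 gave r = 0.90 in tumors 1 to 106 and 0.91 in tumors 107 to 134. These runs cannot be taken as independent. Arrays 97 to 108 on average resembled arrays 109 to 120, 12 numbers later, in the z-scores of all genes. The mean r was 0.37 over 12 pairs, with values from -0.05 to 0.79. The labels name a separate animal for each array, and values at other distances between arrays are not given here. Without tumors 109 to 120, r was 0.90 in the 122 tumors left and 0.93 in the 16 left of the second run. Of the 10 tumors with the highest Acta2, 9 were also among the 10 highest of Cnn1, 9 of Tagln, 8 of Myh11 and 8 of Actg2. These 10 include tumors 100 and 112 (r = 0.56 across all genes) and tumors 99 and 111 (r = 0.21). Both are pairs of such linked arrays, so these 4 tumors are not taken as separate examples.

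Oxtr joined these genes more loosely, with r between 0.40 (Actg2) and 0.62 (Myh11). Its closest member was Myh11 by r, and 6 of its 10 highest tumors were among the 10 highest of Acta2. Mylk gave r between 0.35 and 0.51 with the 5 core genes and a higher value with Oxtr (r = 0.59, rho = 0.55, permutation p = 1e-05 for each). Lmod1 was the loosest of the contractile genes, with r between 0.24 (Mylk) and 0.48 (Myh11). Its relation to Myh11 was r = 0.26 without tumors 61, 73 and 94, which are described below.

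Trp63 stood outside the shared variation. Its r with the other 8 genes averaged 0.05, and the highest was 0.19 with Mylk (rho = 0.19, permutation p = 0.0269 and 0.0316). With Acta2 it was r = 0.12 (rho = 0.11, permutation p = 0.175 and 0.193), and with Tagln r was below 0.01. The 10 tumors highest in Trp63 included 2 of the 10 highest in Acta2. The 10 tumors lowest in Trp63 included 2 of the 10 lowest in Acta2. The mean r over the 28 pairs of the 8 genes without Trp63 was 0.56, beside 0.01 over all pairs of genes on the array. The first principal component of the 9 genes carried 56.8% of their variance, with a weight of 0.03 for Trp63 and of 0.21 to 0.42 for the others, and the second component (12.2%) was led by Trp63 with a weight of -0.90.

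The 28 pairs without Trp63 all passed in limma fits of every gene on the level of 1 member, with p-values adjusted by the Benjamini-Hochberg method over all genes, and 0 of the 8 pairs with Trp63 did (adjusted p between 0.144 and 0.996, where the larger of the 2 fits of a pair is given). At an unadjusted permutation p under 0.05, the pair of Trp63 and Mylk was the only one of the 8. The share of all genes that passed in the positive direction was 5.87% for Acta2, 11.4% for Myh11, 4.27% for Cnn1, 10.8% for Oxtr, 5.57% for Trp63, 10.0% for Tagln, 7.03% for Mylk, 5.32% for Actg2 and 19.1% for Lmod1. Without tumors 61, 73 and 94, 22 pairs passed, and all 6 pairs lost were pairs with Lmod1. In the 28 tumors numbered 107 to 134 alone, 11 pairs passed.

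**Figure D2:**
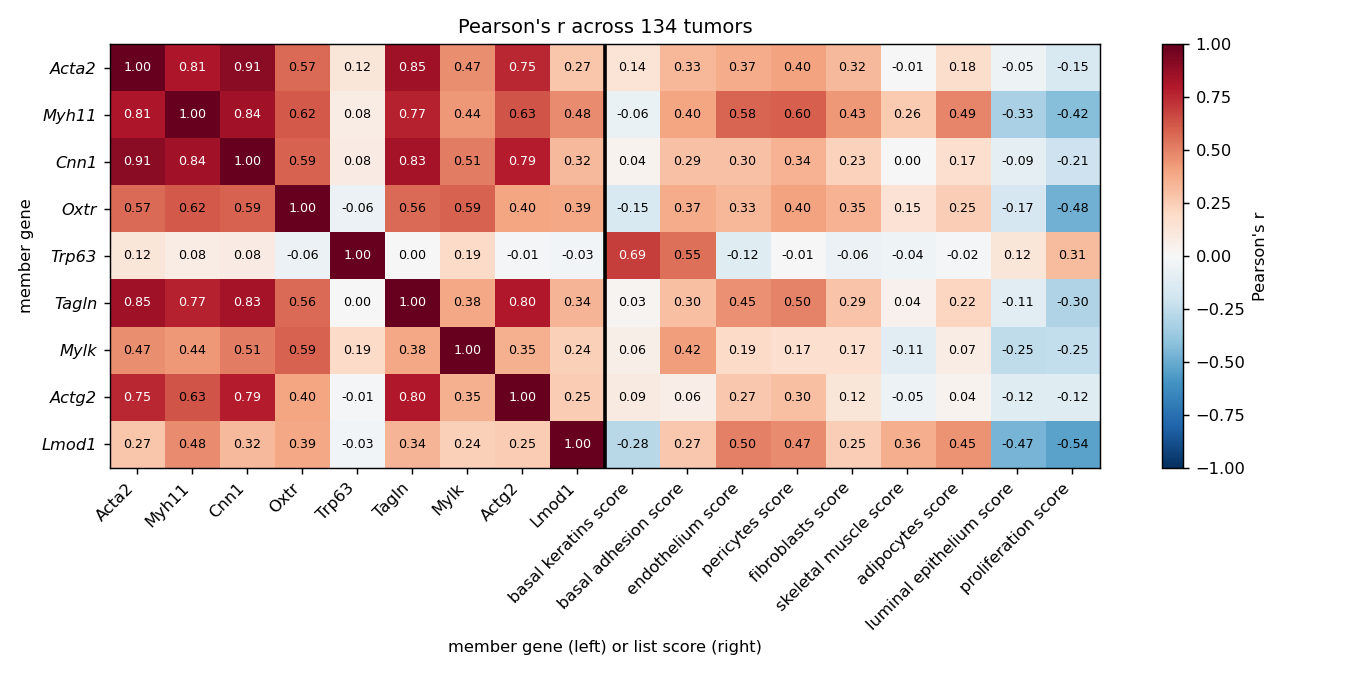
Pearson's r across 134 tumors, color from -1 (blue) to 1 (red), for each member (rows) with the other members (left of the line) and with the scores of marker lists (right). The block of Acta2, Myh11, Cnn1, Tagln and Actg2 lies between 0.63 and 0.91, and the row of Trp63 is near 0 for the contractile genes and 0.69 for the basal keratin score.

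Tumors 61, 73 and 94 stood apart from the rest. A score is the mean z-score of a list's genes in a tumor. Tumors 73, 94 and 61 had endothelial scores of 5.81, 4.23 and 3.62, and the next highest tumor had 1.61. Their median absolute relative log expression, a measure of array quality that is higher in poorer arrays, was 0.232, 0.235 and 0.157 beside a median of 0.106, and the part of array quality in their values was not tested. The same tumors had adipocyte scores of 4.73, 4.66 and 3.78, and proliferation scores of -6.82, -2.50 and -1.46. Tumor 73 also had the lowest luminal epithelium score of all tumors (-5.05). Counts of members that follow for vessel and stroma scores are therefore given with and without these 3 tumors, a setting chosen after the values were seen. Shares of all genes are given for the main fits only. Counts under other settings, here and elsewhere, have no such share beside them. Tumors 1 to 106 and 107 to 134 form separate runs of label numbers of unstated meaning, and 0 of the 9 genes differed between them (limma, adjusted p between 0.281 and 0.943, lowest unadjusted p = 0.114, with 14.4% of all genes passing in either direction).

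In the fit on the score of the basal keratins Krt5, Krt14 and Krt17, Trp63 was the 1 member of 9 that passed in the positive direction, and 4 passed with a proliferation score as a covariate, as given at the end. Its r with the basal keratin score was 0.69 (rho = 0.68, permutation p = 1e-05 for each), an increase of 0.26 ± 0.02 (SE, n = 134) on the log2 scale per SD of the score, with an adjusted p of 1.82e-16 in limma. Leaving out the 2 tumors of most extreme score gave r = 0.65, and the separate runs of label numbers gave 0.68 (tumors 1 to 106) and 0.78 (tumors 107 to 134). Trp63 followed each keratin, Krt5 with r = 0.73, Krt14 with 0.54 and Krt17 with 0.46. In this fit 16.6% of all genes passed in the positive and 20.6% in the negative direction.

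The contractile genes did not pass with the basal keratins, except Lmod1 in the opposite direction. Acta2 gave r = 0.14 (rho = 0.20, permutation p = 0.105 and 0.023, adjusted p = 0.184 in limma), with a 95% interval of r from -0.03 to 0.30. Cnn1 gave 0.04, Tagln 0.03, Mylk 0.06, Actg2 0.09, Myh11 -0.06 and Oxtr -0.15, with adjusted p between 0.145 and 0.818. Lmod1 fell as the keratins rose (r = -0.28, rho = -0.17, permutation p = 0.001 and 0.0553, adjusted p = 0.00558), and its adjusted p was 0.0543 without tumors 61, 73 and 94. Of the single keratins, Acta2 passed with Krt5 (r = 0.29, adjusted p = 0.0119) and not with Krt14 (r = 0.02) or Krt17 (r = 0.04). The r of Trp63 exceeded that of each other member by 0.55 (Acta2) to 0.97 (Lmod1), and each of these 8 differences gave the smallest possible permutation p of 1e-05. In tumor 100, which was highest in Acta2, Cnn1 and Tagln, the basal keratin score was -0.40.

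Basal genes other than keratins gave a different order. The basal adhesion score, from Itgb4, Lamb3, Col17a1, Dst, Jag2 and Snai2, passed in the positive direction with 8 of the 9 members, beside 9.63% of all genes. Its r was 0.55 for Trp63, 0.42 for Mylk, 0.40 for Myh11, 0.37 for Oxtr, 0.33 for Acta2 and 0.06 for Actg2, which did not pass (adjusted p = 0.662). The list is not uniform. Jag2, a Notch ligand, followed Acta2 (r = 0.48), Mylk (0.54) and Trp63 (0.64), and Snai2, a transcription factor of basal cells, followed Acta2 (0.37) and Trp63 (0.64). The hemidesmosome and laminin genes Itgb4 and Lamb3 gave r of -0.14 and -0.11 with Acta2, whereas Col17a1, the hemidesmosome collagen, gave 0.37 with Acta2 and 0.52 with Trp63. Dst, a linker of the cytoskeleton, followed Myh11 (0.41) and gave -0.13 with Trp63. With the basal keratin score 4 of the 6 genes passed in the positive direction and Dst in the negative (-0.35). With the endothelial score 2 of the 6 passed, Dst (0.53) and Snai2 (0.22). Of the endothelial list, 5 of 10 genes passed with the basal adhesion score, so this score does not separate basal from vessel genes.

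**Figure D3:**
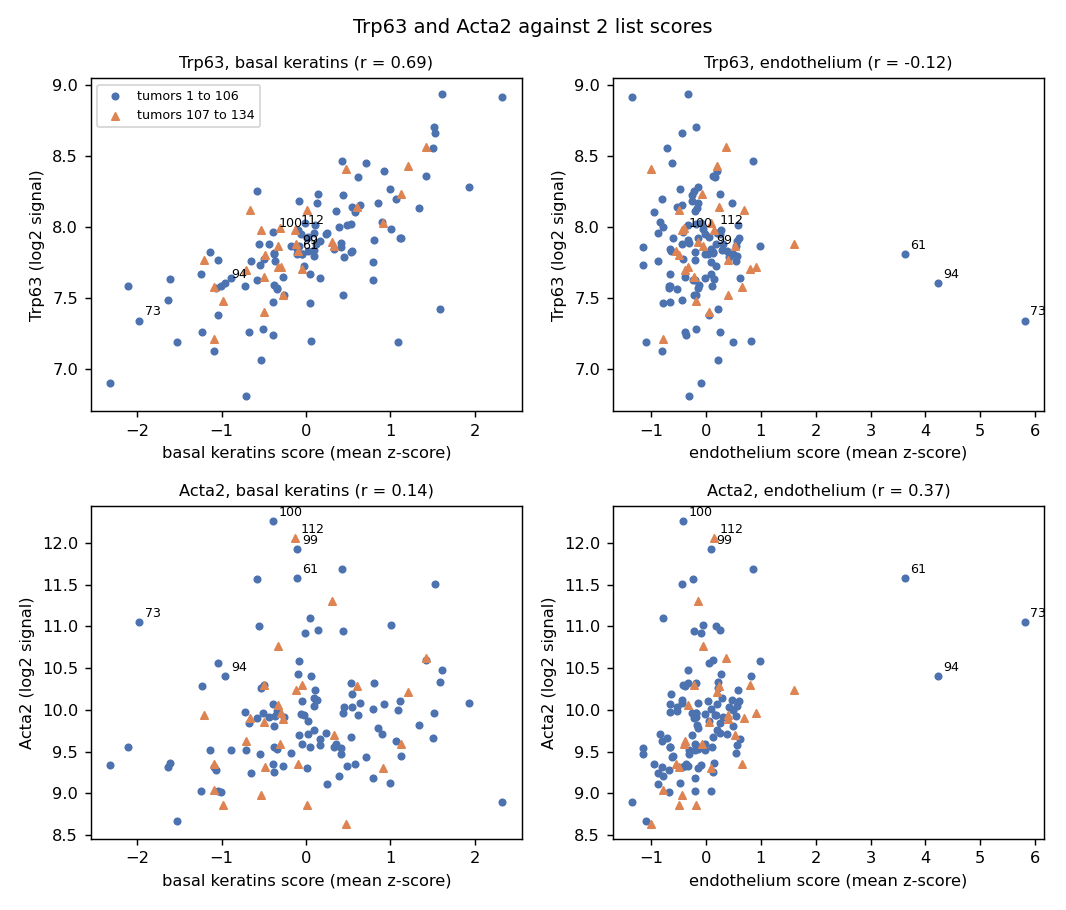
Log2 signal of Trp63 (top) and Acta2 (bottom) against the basal keratin score (left) and the endothelial score (right), 1 point per tumor, circles for tumors 1 to 106 and triangles for tumors 107 to 134. Trp63 climbs with the keratin score (r = 0.69), while the highest Acta2 tumors (100, 112 and 99) have endothelial scores of -0.42, 0.16 and 0.09 and lie far from tumors 61, 94 and 73 at the right. Tumors 100 and 112 are linked arrays and not taken as separate examples.

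With the endothelial score, from 10 genes such as Pecam1 and Cdh5, 7 of the 9 members passed in the positive direction, beside 15.7% of all genes. Myh11 gave r = 0.58 (rho = 0.43, permutation p = 1e-05 for each), a rise of 0.33 ± 0.04 (SE, n = 134) on the log2 scale per SD of the score. Lmod1 gave r = 0.50 (rho = 0.21), Tagln 0.45 (rho = 0.48), Acta2 0.37 (rho = 0.43), Oxtr 0.33 (rho = 0.13), Cnn1 0.30 (rho = 0.30) and Actg2 0.27 (rho = 0.26). Mylk (r = 0.19, adjusted p = 0.067) and Trp63 (r = -0.12, adjusted p = 0.252) did not pass. Without tumors 61, 73 and 94 the members that passed were 3, namely Acta2 (r = 0.33), Myh11 (0.32) and Tagln (0.29), and r fell to 0.15 for Lmod1 and 0.09 for Oxtr. In tumors 107 to 134 alone 0 passed in limma (2 at an unadjusted p under 0.05), with r of 0.40 for Acta2, 0.37 for Tagln and 0.35 for Myh11.

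The pericyte score, from Rgs5, Pdgfrb, Cspg4, Notch3, Abcc9, Kcnj8 and Heyl, passed with the same 7 members, beside 16.2% of all genes. Myh11 again gave the highest value (r = 0.60, rho = 0.40), followed by Tagln (r = 0.50, rho = 0.46), Lmod1 (r = 0.47, rho = 0.17), Oxtr (r = 0.40, rho = 0.26) and Acta2 (r = 0.40, rho = 0.42). Acta2, Myh11 and Tagln were the 3 that passed without tumors 61, 73 and 94, each with r = 0.35. Among single pericyte genes Acta2 followed Pdgfrb most closely (r = 0.51) and Kcnj8 least (r = 0.05). The pericyte and endothelial scores themselves gave r = 0.85 with each other, so these results are not separate.

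The fibroblast score passed with 6 members, beside 10.4% of all genes. Myh11 gave r = 0.43 (rho = 0.37), Oxtr 0.35 (rho = 0.27), Acta2 0.32 (rho = 0.31), Tagln 0.29 (rho = 0.24), Lmod1 0.25 (rho = 0.11) and Cnn1 0.23 (rho = 0.25). Actg2 (r = 0.12), Mylk (0.17) and Trp63 (-0.06) did not pass. The matrix protease gene Mmp2 had the highest r of the fibroblast genes with Acta2 (0.50), and Col1a1, a main collagen gene of fibroblasts, gave 0.13. Without tumors 61, 73 and 94, 3 members passed (Acta2, Myh11 and Oxtr), and 0 passed in tumors 107 to 134 alone (1 in limma at an unadjusted p under 0.05).

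Skeletal muscle lies beneath the mammary gland and also holds actin and myosin genes. Its score passed with Myh11 (r = 0.26, rho = 0.14) and Lmod1 (r = 0.36, rho = 0.19), beside 8.64% of all genes, and with 0 members without tumors 61, 73 and 94 (1 in limma at an unadjusted p under 0.05). Acta2 and Cnn1 gave r of -0.01 and 0.00 with it.

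A joint limma fit on the basal keratin, endothelial and fibroblast scores asked which of them each gene followed with the others held. Coefficients are in SD of the gene per SD of the score. Trp63 had a basal keratin coefficient of 0.69 (95% interval 0.56 to 0.82, adjusted p = 7.59e-16). Acta2 was the other member that passed with the basal keratins in the positive direction (0.22, interval 0.06 to 0.38, adjusted p = 0.0205), and Lmod1 passed in the negative direction (-0.19, adjusted p = 0.0307), beside 16.4% and 22.4% of all genes in the 2 directions. The call for Acta2 was lost in tumors 1 to 106 alone (adjusted p = 0.0595), in tumors 107 to 134 alone, with array quality (0.0938) or proliferation (0.0756) as a covariate and after another quantile normalization (0.086). That for Lmod1 was lost with array quality (0.0931) or proliferation (adjusted p = 0.887) as a covariate, after another quantile normalization (0.39), on ranks (0.115), without the 2 farthest tumors (0.0592), without tumor 73 (0.0575), without tumors 61, 73 and 94 (0.0574) and in tumors 107 to 134 alone. With the endothelial score 6 members passed, beside 15.2% of all genes: Lmod1 (0.53), Myh11 (0.52), Tagln (0.46), Actg2 (0.33), Acta2 (0.32) and Cnn1 (0.26). Of these, Tagln (adjusted p = 0.0361) and Acta2 (adjusted p = 0.0456) remained past the threshold without tumors 61, 73 and 94. With the pericyte score added to the fit, 0 of these 6 passed (limma, adjusted p between 0.067 and 0.973), and 1 had an unadjusted p under 0.05. With the fibroblast score 0 members passed, beside 5.95% of all genes, and 1 had an unadjusted p under 0.05, Oxtr (0.23, interval 0.04 to 0.43, adjusted p = 0.121).

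Tests of the difference between coefficients compared 2 scores within each gene, and did not compare Trp63 with other genes. The basal keratin coefficient exceeded the endothelial one for Trp63 (difference 0.72, adjusted p = 3.17e-10), beside 17.8% of all genes, and was below it for Lmod1 (-0.73, adjusted p = 3.07e-08), Myh11 (-0.47, adjusted p = 0.000152) and Tagln (-0.35, adjusted p = 0.0134), beside 17.3% of all genes. Without tumors 61, 73 and 94 the differences of Myh11 (adjusted p = 0.455) and Tagln (adjusted p = 0.424) did not pass, and that of Lmod1 did (adjusted p = 0.0419). With proliferation as a covariate the adjusted p was 0.278 for Myh11, 0.581 for Tagln and 0.0606 for Lmod1, and with the pericyte score added it was 0.471, 0.943 and 0.00735. On ranks it was 0.112 for Myh11 and 0.051 for Tagln, and that of Tagln was 0.131 without tumor 73 alone and 0.109 without the 2 farthest tumors. In tumors 107 to 134 alone the difference for Trp63 was 0.65 (interval 0.112 to 1.19, limma p = 0.0197, adjusted p = 0.779), which did not pass. For Acta2 (-0.10, interval -0.33 to 0.14) and Cnn1 (-0.17, interval -0.41 to 0.08) the coefficients did not differ past the threshold. The same held for Oxtr (-0.26, interval -0.50 to -0.02, limma adjusted p = 0.0889), Actg2 (-0.19, interval -0.44 to 0.06) and Mylk (-0.05, interval -0.31 to 0.20). Basal keratins exceeded fibroblasts for Trp63 (0.64, adjusted p = 3.73e-07, and 0.0042 in tumors 107 to 134), beside 12.7% of all genes, and endothelium exceeded fibroblasts for Lmod1 (0.63, adjusted p = 0.0022), beside 11.6%. The latter did not pass without the 3 tumors (adjusted p = 0.418).

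**Figure D4:**
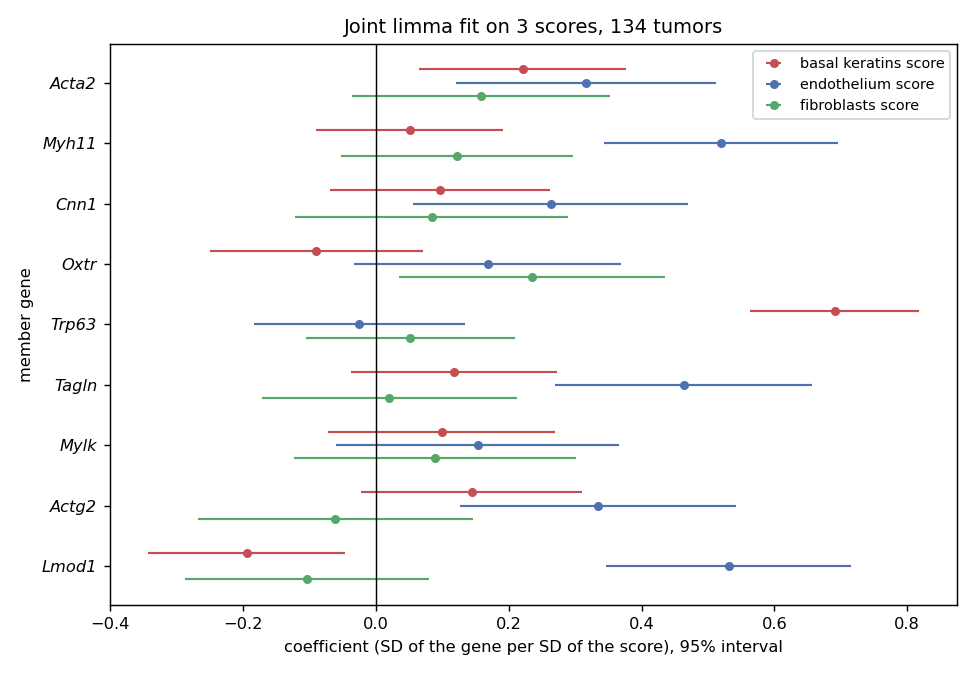
Coefficients of the joint fit (x axis, SD of the gene per SD of the score, bars are 95% intervals, n = 134 tumors) for each member (y axis), with basal keratins in red, endothelium in blue and fibroblasts in green. The red point of Trp63 (0.69) is far to the right of all other red points, and the blue points of Lmod1 (0.53), Myh11 (0.52) and Tagln (0.46) lead the endothelial coefficients.

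The scores accounted for part of the variation of each gene. The 3 scores of the joint fit took up 47.6% of the variance of Trp63, 35.3% of Myh11, 29.7% of Lmod1, 21.9% of Tagln, 19.9% of Acta2, 15.1% of Oxtr, 10.1% of Cnn1, 9.56% of Actg2 and 4.97% of Mylk. These shares include tumors 61, 73 and 94. Without them, r with the endothelial score fell from 0.50 to 0.15 for Lmod1 and from 0.58 to 0.32 for Myh11. Shares without these tumors were not computed. With the pericyte and skeletal muscle scores added, the shares were 39.0% for Myh11, 32.8% for Lmod1, 30.0% for Tagln, 27.0% for Acta2 and 15.9% for Cnn1. After all 5 scores were taken out, the mean r over the 28 contractile pairs was 0.51, and Acta2 with Cnn1 gave 0.90. No list was made for the smooth muscle of vessel walls, so its part in these pairs was not tested. Single tumors are given as examples, and tumors 100 and 112 are a pair of linked arrays, not taken as separate examples. Tumor 100 had Acta2 at 12.26, Cnn1 at 9.87 and Tagln at 9.30 with an endothelial score of -0.42, a pericyte score of 0.03 and a fibroblast score of -0.83. Tumor 112 had Acta2 at 12.06 and Cnn1 at 9.53 with scores of 0.16, 0.13 and 0.40. Tumor 73, with the highest endothelial score, had Acta2 at 11.05 and Cnn1 at 8.04, both below tumors 100 and 112, while its Myh11 (9.48) was above theirs (7.95 and 7.77). Tumor 61, also high in the endothelial score, had Acta2 at 11.58 and Cnn1 at 8.91. Of the 10 tumors highest in Acta2, 3 were among the 10 highest in the endothelial score and 1 in the basal keratin score, whereas 6 of the 10 highest in Trp63 were among the 10 highest in the basal keratin score.

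**Figure D5:**
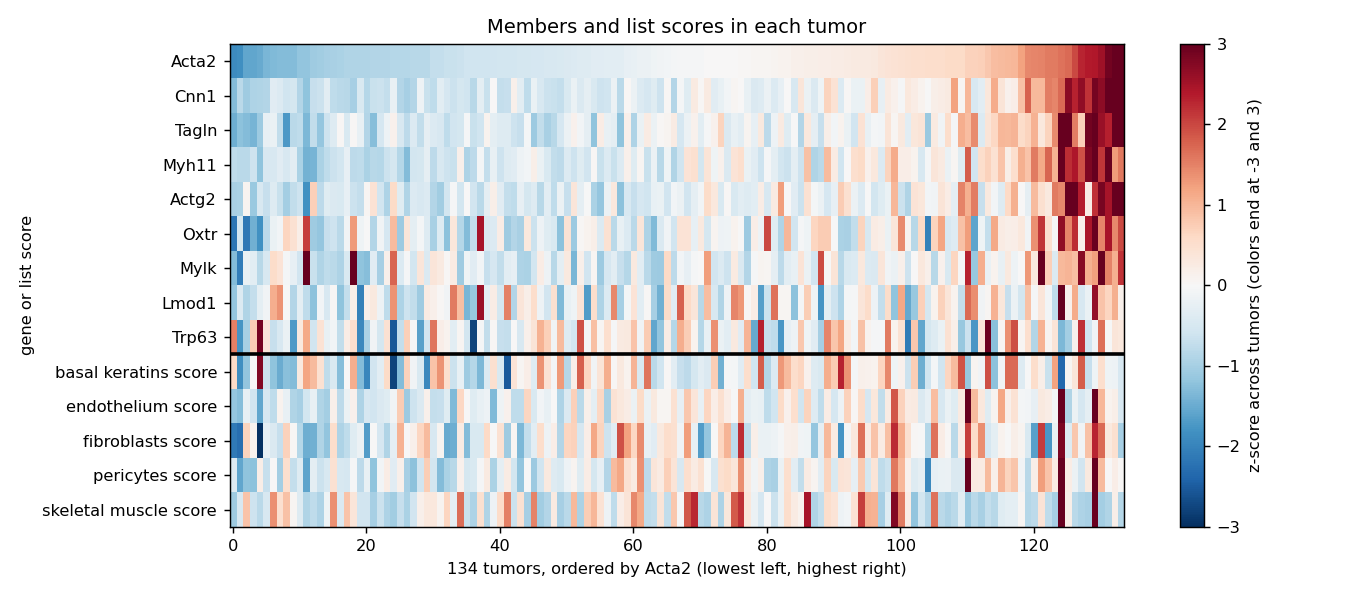
Z-scores of the members (rows above the line) and of 5 list scores (rows below it) in each of 134 tumors (columns, ordered by Acta2 from lowest to highest), colors from -3 (blue) to 3 (red). The right end is red for Acta2, Cnn1, Tagln, Myh11 and Actg2 together, and most of these tumors show no matching red in the score rows. The dark red endothelial columns are tumors 94, 73 and 61.

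The genes whose levels were most like each member, out of all genes, differed from member to member. For Acta2 they were Cnn1, Myl9 (r = 0.88), Tagln, Myh11 and Tgfb1i1 (0.77), a focal adhesion adaptor also known as Hic-5. Myl9 and Tgfb1i1 were also among the 5 nearest genes of Cnn1, Tagln and Actg2. Myh11 was followed by Ism1 (0.82) besides Cnn1, Acta2, Tagln and Myl9. For Trp63 the nearest were Sostdc1 (0.76), an inhibitor of Wnt and BMP signals, the cadherin gene Fat2 (0.74), the basal keratin Krt5 (0.73), Trim29 (0.68) and Jag2 (0.64), and none of the other 8 members was among its 25 nearest. The same held for Lmod1, while Mylk had 1 member among its 25 nearest and the other 6 genes 3 to 5. The nearest genes of Oxtr were Pgm5 (0.66), Pkd1 (0.65), Abca2 (0.64), Myh11 and Mir145a (0.61), and those of Mylk were 1600014C10Rik (0.66), Fat4 (0.62), Col4a2 (0.61), Cers4 (0.60) and Matn2 (0.60). Lmod1 was nearest to Ky (0.64), Ebf3 (0.63), Ankef1, Ushbp1 and Mrgprh (each 0.62), with rho between 0.34 and 0.44 for these 5 genes, and the means of Ky (5.59), Ankef1 (5.02) and Mrgprh (4.61) lay below the floor. No gene of the endothelial list was among the 25 nearest genes of any member. That list holds 10 of the 19938 genes, so its absence from so few nearest genes says little about the relation to vessels. These values describe 134 tumors that share 1 array platform.

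The wider contractile apparatus behaved less uniformly than the members. Of 29 measured genes, 7 (24.1%) passed with the level of Acta2 in the positive direction, beside 5.87% of all genes, and 0 in the negative, beside 2.60%. Those 7 were Myl9, Kcnmb1 (r = 0.63), a subunit of a smooth muscle potassium channel, the collagen receptor gene Itga1 (0.40), the actin crosslinker gene Flna (0.36), the calcium channel gene Cacna1c (0.34), Tpm1 (0.31), a tropomyosin, and Myl6 (0.27), a myosin light chain. Kcnmb1, at a mean of 5.21, lay below the floor. With Trp63, 1 passed in the positive direction (Vcl, r = 0.29) and 1 in the negative (Plcb1, -0.29), beside 5.57% and 3.97% of all genes. With the endothelial score 15 (51.7%) passed in the positive and 2 (6.9%) in the negative direction, beside 15.7% and 22.7% of all genes, led by Itga1 (0.82) and Synpo2 (0.80), and without tumors 61, 73 and 94 these counts were 10 and 0. With the basal keratin score 5 passed in the positive direction, among them Vcl (0.46), a focal adhesion protein, and Srf (0.34), the factor that binds the CArG box, and 3 in the negative. These are 17.2% and 10.3% of the list beside 16.6% and 20.6% of all genes, so the first share was near the background and the second below it. Srf gave r = 0.21 with Acta2 (adjusted p = 0.111), and its cofactor Myocd, at a mean of 5.19 and below the floor, gave -0.09. The cofactor genes Mrtfa (mean 7.46) and Mrtfb (mean 9.25) lay above the floor. They gave r of 0.13 and -0.23 with Acta2 and did not pass (limma, adjusted p = 0.336 and 0.0706).

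Proliferation moved with several of these results. Its score, from 8 genes such as Mki67, rose with the basal keratin score (r = 0.56) and with Trp63 (r = 0.31, rho = 0.35, adjusted p = 0.000794, beside 21.6% of all genes in that direction). It passed in the negative direction with 6 members, beside 22.1% of all genes: Lmod1 (r = -0.54, rho = -0.26), Oxtr (-0.48, rho = -0.47), Myh11 (-0.42, rho = -0.15), Tagln (-0.30, rho = -0.09), Mylk (-0.25, rho = -0.27) and Cnn1 (-0.21, rho = -0.11). Without tumors 61, 73 and 94, r was -0.40 for Oxtr, -0.26 for Lmod1 and between -0.18 and -0.08 for the other 4. With the proliferation score as a covariate, a setting added after the values were seen, Trp63 gave a partial r of 0.65 with the basal keratins, and Acta2 (0.28, adjusted p = 0.0199), Tagln (0.25, adjusted p = 0.0412) and Mylk (0.24, adjusted p = 0.0447) also passed, while Lmod1 gave 0.03. The share of all genes that passed with this covariate is not given here. The part of proliferation in the results of the contractile genes was not tested further.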

How the data were processed

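Tumor RNA was hybridised to the Mouse Gene 1.0 ST array by the authors, who deposited log2 values per probe set summarised with RMA, whose version is not given in the sources used here. The deposited values were used unchanged. Of 35556 probe sets, 21789 had 1 gene symbol, 1621 several and 12146 none, and only the first were used. Genes with several probe sets (999) took the one with the highest mean, giving 19938 genes, of which 19856 matched RefSeq (GRCm38.p6) by Entrez identifier. Array medians lay between 6.30 and 6.54, and the median absolute relative log expression, a measure of array quality, between 0.0738 and 0.273. Precision is limited by how many arrays there are.

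A list score was the mean z-score of its genes, scaled to SD 1 in the fits. Associations were tested with limma 3.58.1 in R 4.3.3 (lmFit and eBayes) over all genes outside the score's own list, with Benjamini-Hochberg adjustment over all genes and a threshold of 0.05. The limma step was checked on simulated data with independent noise. That check does not cover correlated genes, extreme tumors or linked arrays. Single correlations (45 of a member with a score, 36 of member pairs) were tested with 100000 permutations, 2-sided, and the difference of 2 correlations by permuting the score against the difference of z-scores. Named genes were the 9 members, the genes of the marker lists and the 5 genes of highest r to each member. The members and lists were chosen with earlier results of these data known. The fits were repeated under 16 other settings, 2 of them added after the data were seen. Each tumor came from a separate animal by its labels. The 12 pairs of arrays 12 numbers apart (97 to 108 with 109 to 120) on average resembled each other over all genes. The mean r of their gene z-scores was 0.37, with values from -0.05 to 0.79. The main fits, intervals and permutations kept all these arrays and treated them as independent. Leaving out tumors 109 to 120 was run only as another setting. In it 3 member pairs were weaker (25 passed, beside 28 in the main fits). In the same setting 1 score association and 2 results of the joint fit were stronger. Genotypes, subtypes, metastasis and the other crosses were not analysed here.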

Additional observations from a re-analysis of the deposited data

How the results depend on the processing

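No paired analysis was possible because the labels give 1 group with no replicate numbers shared between groups. Each of the 9 mean levels moved by less than 1 SD under each setting run for it. The number of members called positive with the basal keratin score was 1, and 4 with the proliferation score as a covariate. With the endothelial score it was 7, 0 in tumors 107 to 134 and 3 without tumors 61, 73 and 94. On ranks, Oxtr and Lmod1 did not pass (limma, adjusted p = 0.276 and 0.0628). Without the 2 farthest tumors, Oxtr and Actg2 did not pass (0.0507 and 0.0578). Oxtr did not pass with the proliferation covariate either (0.452). With the fibroblast score it was 6, 0 in tumors 107 to 134, 3 without the 2 farthest tumors, 3 without tumors 61, 73 and 94, and 2 with the proliferation covariate. With the pericyte score it was 7, 2 in tumors 107 to 134 and 3 without the 3 tumors. With the skeletal muscle score it was 2, 1 without tumor 73, and 0 on ranks, in tumors 107 to 134, without the 2 farthest, without the 3 tumors and with the proliferation covariate. In the joint fit, the basal keratin count of 2 became 1 after another quantile normalization, in tumors 1 to 106, in tumors 107 to 134, with array quality as a covariate and with proliferation. The endothelial count of 6 became 0 in tumors 107 to 134, 0 with the pericyte score added and 2 without the 3 tumors. Cnn1 was lost there also on ranks (limma, adjusted p = 0.0904), without the 2 farthest tumors (0.133) and without tumor 73 (0.117). It was lost too in tumors 1 to 106 (0.0577) and with proliferation (0.231). Lmod1 was lost on ranks (0.118) and Actg2 without the 2 farthest tumors (0.0584). Smaller changes of the counts in this paragraph are not all listed, and the counts under other settings have no share of all genes beside them. Of the pairs of members, 28 passed, and 11 in tumors 107 to 134. The basal keratin and Trp63 association kept its direction and its call under all settings run. Called directions turned in tumors 107 to 134 for Lmod1 with basal keratins (0.20, in SD per SD) and, in the joint fit, for Lmod1 with basal keratins (0.29), endothelium (-0.24), their difference (0.32) and endothelium minus fibroblasts (-0.31), for Myh11 with endothelium (-0.0335) and basal keratins minus endothelium (0.18), and for Cnn1 with endothelium (-0.0099). Cnn1 turned also with the pericyte score added (-0.0061), and Lmod1 with basal keratins under the proliferation covariate (partial r = 0.0284). None of these turned values passed the threshold. Trp63, not called with the pericyte score, gave a partial r of 0.26 (limma, adjusted p = 0.0118) under the proliferation covariate. That run holds 28 tumors, and fewer samples leave fewer calls. The cause of the other changes was not tested. Scores from a first principal component were not run for pairs of members.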
